A study of Homo sapiens with 4 samples.

Results

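The aminoacyl-tRNA synthetases described here are 36 genes of the 25548 gene symbols in an FPKM table, taken by symbol: 20 enzymes or subunits counted as cytosolic and 16 mitochondrial enzymes, whose symbols end in ARS2. Expression was measured by stranded RNA-seq of messenger RNA in FaDu, an established squamous carcinoma line of the hypopharynx. One FaDu culture was labelled DMSO only. The other, the treated library, received 5-aza-2'-deoxycytidine (Aza), which traps DNA methyltransferases, at 5 µM from day 1 through day 3, together with the histone deacetylase inhibitor trichostatin A (TSA) at 100 nM on day 3. The protocol names ethanol as a further vehicle, for TSA. Each group had 1 library, so no value below has a replicate error, no p-value is given, and each difference is one between these libraries. The table also holds UMSCC47 columns, which were not used: 13 of the 36 synthetases, enzymes no cell can do without, were listed at 0 FPKM in its DMSO column and YARS at 1795.

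A synthetase joins an amino acid to its tRNA, and the cytosol and mitochondria each need their own charged tRNAs. Human mitochondria have no glutaminyl enzyme: EARS2 puts glutamate on that tRNA and an amidotransferase converts it. The mitochondrial enzymes are encoded in the nucleus and imported, and for most amino acids they come from a separate gene. GARS and KARS each encode both forms, and EPRS carries the glutamyl and the prolyl activity in one protein. Several cytosolic enzymes are held in a multisynthetase complex by the scaffold proteins AIMP1, AIMP2 and EEF1E1. Uncharged tRNA activates the kinase GCN2 (EIF2AK4), which raises translation of the transcription factor ATF4. ATF4 binds composite C/EBP-ATF elements and is known to drive genes of amino acid supply, among them 12 of the cytosolic synthetases, here called ATF4-listed: AARS, CARS, EPRS, GARS, IARS, LARS, MARS, NARS, SARS, TARS, WARS and YARS. That list was written from general knowledge and not from a binding experiment.

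The C/EBP-ATF element has TGATGCAA as a common form, and because the ATF4-listed enzymes had lower values together, the promoters of all members were searched for it on both strands. RefSeq promoters (GRCh38.p14, 250 bases before to 50 after a start) were found for 30 members, 39 promoters in all. TGATGCAA or its reverse complement TTGCATCA stood in 6 of 10 ATF4-listed enzymes with a promoter (AARS, CARS, IARS, MARS, NARS and TARS), in 0 of 6 other cytosolic enzymes and in 0 of 14 mitochondrial enzymes. It was present in 0.866% of all 35116 promoters of that length. That is a share of single promoters, while the members were counted as genes, and the 10 listed enzymes had 15 promoters. Since ATF4 binds this element, a list of genes known to be driven by ATF4 is not independent of it. The E-box CACGTG, searched as a further motif, stood in IARS, CARS2, EARS2 and MARS2, and in 7.26% of all promoters. The looser TGATGNAA, which includes every TGATGCAA match, was also found in GARS and in the mitochondrial YARS2, and in 3.62% of all promoters. EPRS, SARS and WARS, also listed and lower in the treated library, had promoters without a match to TGATGCAA or TGATGNAA. Members without an entry included LARS, VARS, YARS, AARS2 and VARS2. The 250 bases upstream of AARS and the 30-base surroundings of the other matches are shown 5′ to 3′ on the gene's strand, under the current symbols, because these genes, YARS2 included, had lower values in the treated library. Capitals mark the match.
AARS1 (chr16:70289507-70289756, minus strand): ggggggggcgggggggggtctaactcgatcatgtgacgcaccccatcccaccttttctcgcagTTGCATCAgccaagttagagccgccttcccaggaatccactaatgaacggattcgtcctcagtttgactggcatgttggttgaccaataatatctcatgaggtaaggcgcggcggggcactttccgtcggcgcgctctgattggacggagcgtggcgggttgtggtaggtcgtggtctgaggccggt
CARS1 (chr11:3057407-3057436, minus strand): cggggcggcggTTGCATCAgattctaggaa
IARS1 (chr9:92293692-92293721, minus strand): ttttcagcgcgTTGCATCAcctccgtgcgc
MARS1 (chr12:57488053-57488082, plus strand): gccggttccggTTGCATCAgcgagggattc
NARS1 (chr18:57621804-57621833, minus strand): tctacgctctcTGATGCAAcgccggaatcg
TARS1 (chr5:33440956-33440985, plus strand): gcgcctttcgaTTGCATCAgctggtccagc
GARS1 (chr7:30594834-30594863, plus strand): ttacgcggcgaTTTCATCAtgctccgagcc
YARS2 (chr12:32756076-32756105, minus strand): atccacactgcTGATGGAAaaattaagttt
The match began 197 bases before the annotated start in YARS2, 187 in AARS, 33 in GARS, 13 in IARS, 4 in MARS and 2 in CARS, and at base 3 of the transcript in TARS and base 15 in NARS. A match is a string of letters, and binding was not measured here.

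All 36 members were measured, with at least 1 FPKM in both libraries. Cytosolic synthetase mRNA was mostly more abundant, with a median level of 57.8 FPKM in the DMSO library (range 11.5 to 213), against 11.6 (2.50 to 62.9) for the mitochondrial enzymes. In the treated library the medians were 45.9 (23.1 to 137) and 8.40 (1.83 to 56.3). The summed level of the cytosolic members was 1508 FPKM with DMSO and 1114 with Aza/TSA, 1.35-fold lower, and that of the mitochondrial members was 222 and 190, 1.17-fold lower. TARS and SARS had the highest levels in both libraries, and IARS2 was the most abundant mitochondrial enzyme in both. In a bulk library, a lower level of an mRNA in every cell and fewer cells that hold much of it cannot be told apart.

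**Figure D1:**
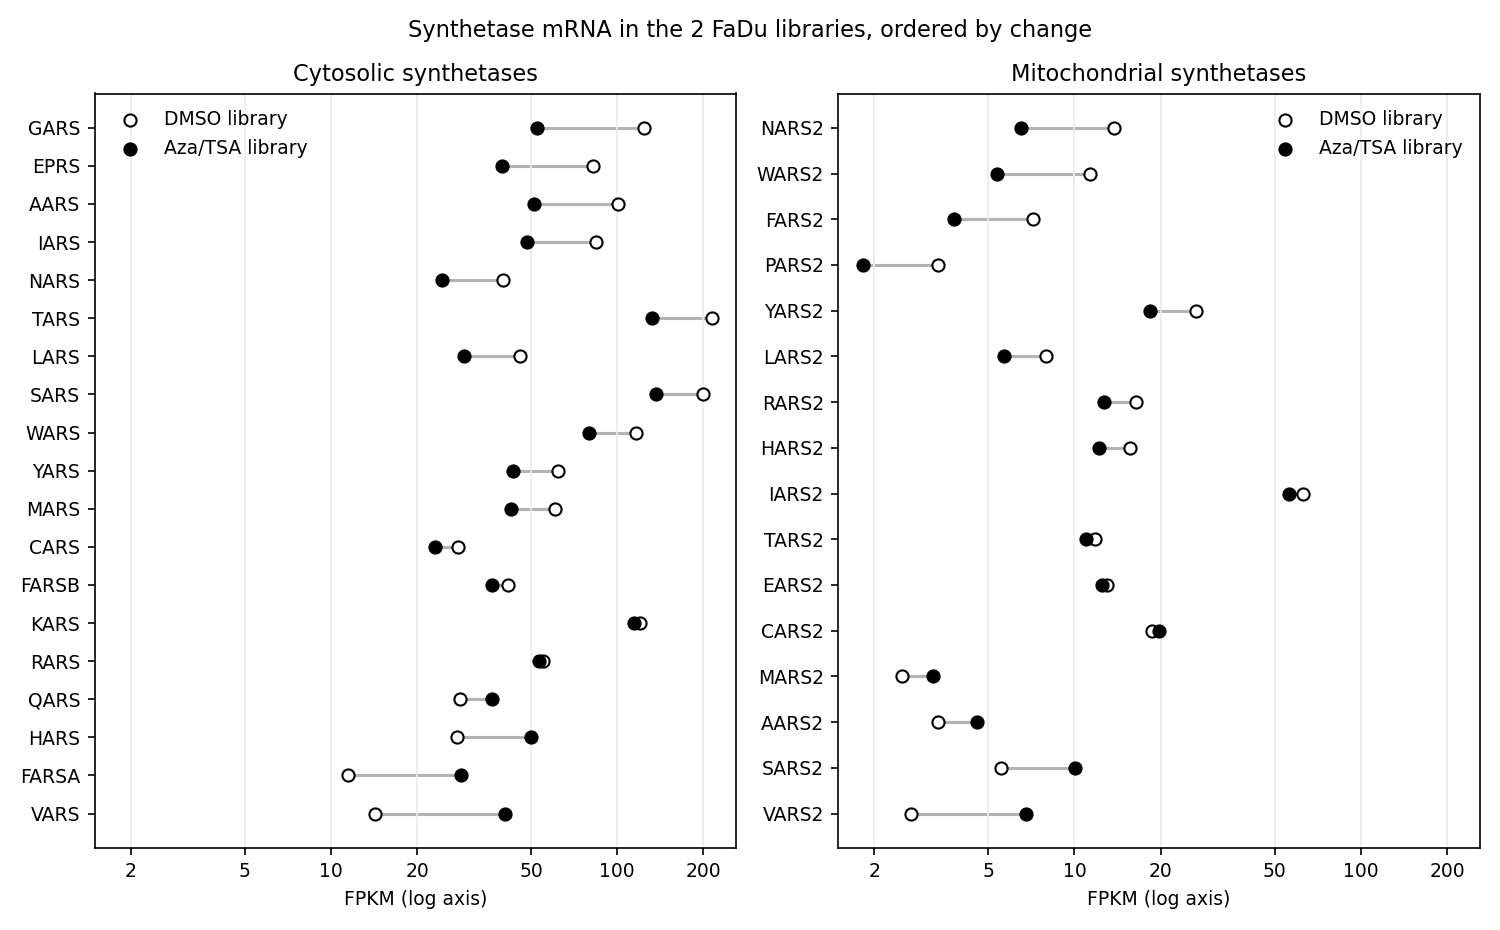
FPKM of the synthetases named in the text (log axis) in the DMSO library (open circles) and the Aza/TSA library (filled circles), 1 library each, ordered by log2 change. The cytosolic members from GARS to RARS lie lower in the treated library, and QARS, HARS, FARSA and VARS lie higher.

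Most synthetases of both compartments were lower in the treated library, by less than 2-fold. A change is log2 of the treated over the DMSO level after adding 1 FPKM to each, a scale that compresses differences between low levels. The change was below 0 in 16 of 20 cytosolic and 11 of 16 mitochondrial members. Among the 13558 measured genes, those reaching 1 FPKM in at least one library, 44.0% were below 0. Among genes reaching 5 FPKM in both the share was 47.3%. The median change was −0.50 for the cytosolic and −0.24 for the mitochondrial members, against 0.13 over all measured genes. At 2-fold, 2 cytosolic members were lower (GARS and EPRS) and 2 higher (VARS and FARSA), and no mitochondrial member was lower and 1 higher (VARS2). Over all measured genes 5.21% were at least 2-fold lower and 16.1% at least 2-fold higher, so the members' counts at that threshold are small numbers near the background. At 1.5-fold, a threshold added after the values were seen, 7 cytosolic and 4 mitochondrial members were lower (16.1% of measured genes) and 3 and 2 were higher (30.7%).

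The change of a gene in these libraries followed the GC content of its transcript, and this touches every result here. The Spearman correlation was 0.68 across 7123 genes reaching 5 FPKM in both libraries. These genes share both libraries, and genes are not replicates. Across the 36 synthetases it was 0.42. With the GC trend subtracted, the median was −0.53 for the cytosolic and −0.48 for the mitochondrial members, so that the distance between the compartments, 0.26 as deposited, was 0.05. Then 3 cytosolic members (AARS, GARS and YARS) and 2 mitochondrial members (FARS2 and PARS2) were at least 2-fold lower, against 4.26% of genes, and none was 2-fold higher, against 7.41%. Below 0 were 14 of 20 cytosolic and 13 of 16 mitochondrial members, against 48.7% of genes. The cause of the GC trend was not tested.

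**Figure D2:**
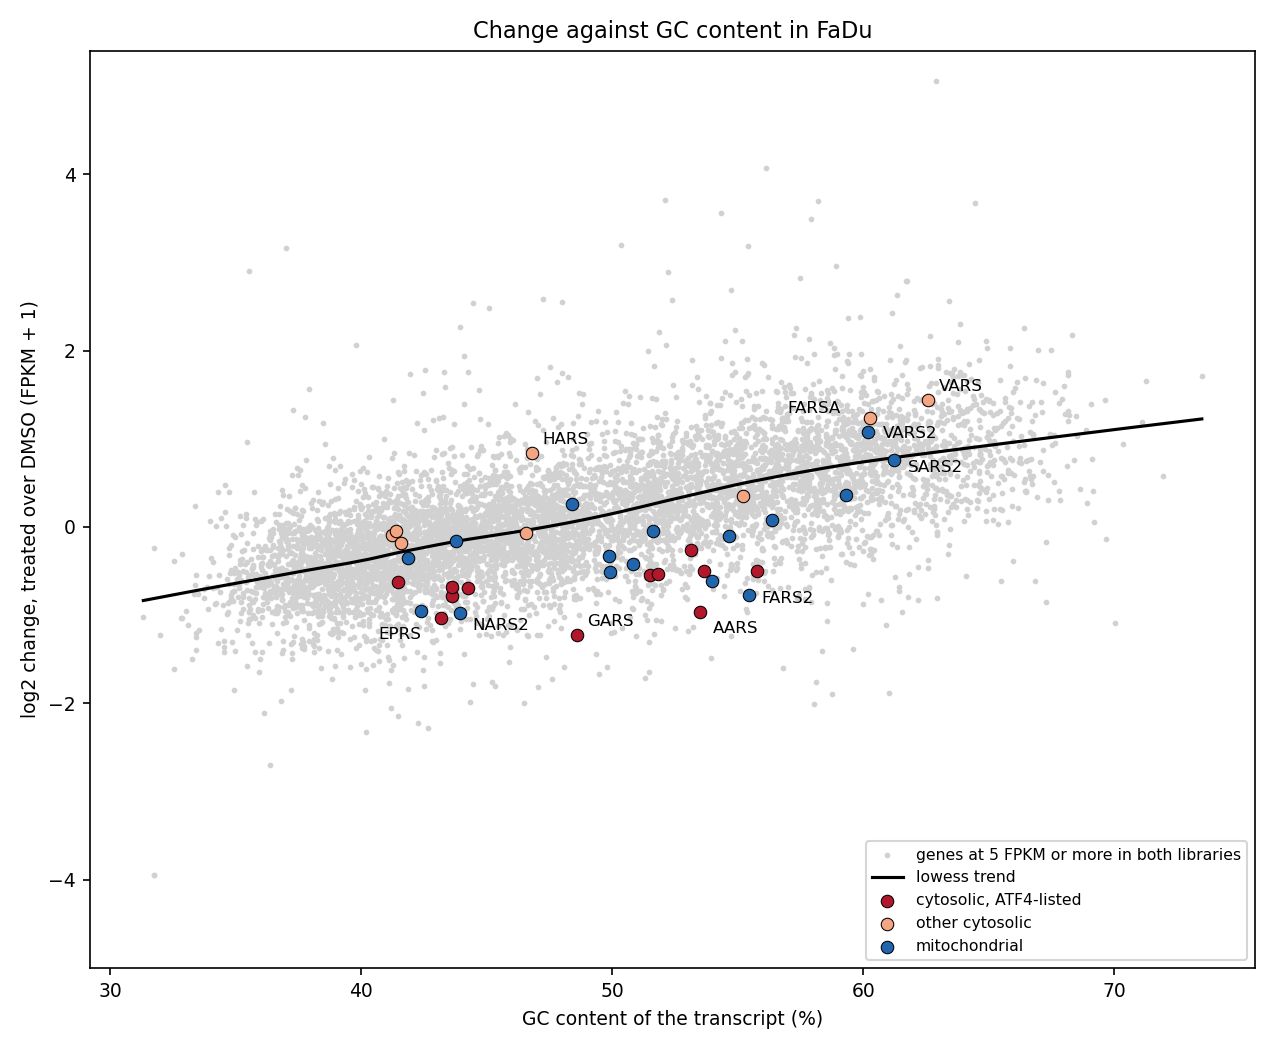
Log2 change against the GC content of the transcript (%) for genes reaching 5 FPKM in both libraries (grey), with the lowess trend (line) and the synthetases (coloured by group). GARS, AARS and FARS2 lie far below the trend, SARS2 lies on it, and HARS lies above it.

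The 12 ATF4-listed cytosolic enzymes were all lower in the treated library, and the other 8 were not lower to the same extent. Of all measured genes 44.0% were lower by any amount. GARS, the glycyl enzyme, had 124 FPKM with DMSO and 52.4 with Aza/TSA, 2.36-fold lower. EPRS had 82.1 and 39.7 FPKM, 2.07-fold lower. AARS, the alanyl enzyme, had 101 and 51.2 FPKM, 1.97-fold lower. These 3 had the lowest changes of the whole cytosolic set, at −1.22, −1.03 and −0.96.

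The isoleucyl enzyme IARS had 84.0 FPKM with DMSO and 48.5 with Aza/TSA, the leucyl enzyme LARS 45.7 and 29.3, and the asparaginyl enzyme NARS 40.1 and 24.4. The most abundant members, TARS for threonine and SARS for serine, had 213 and 132 FPKM and 199.99 and 137 FPKM. Their folds lay between 1.46 for SARS and 1.73 for IARS, all downwards. The remaining 4 enzymes of the list were 1.20- to 1.45-fold lower. WARS, the tryptophanyl enzyme, which interferon-gamma is known to induce, had 116 and 79.8 FPKM. YARS for tyrosine had 61.9 and 43.4 FPKM, MARS for methionine 60.6 and 42.6, and CARS for cysteine 27.8 and 23.1. Of the interferon-gamma genes set beside WARS, 3 of 7 measured were at least 2-fold higher, against 16.1% of all measured genes, and none lower, namely TAP1 at 9.35 and 38.2 FPKM, ICAM1 at 6.42 and 21.3, and PSMB9 at 11.6 and 25.8. IRF1 and GBP1 differed by 1.05- and 1.18-fold. After subtraction of the GC trend PSMB9 was at 0.68, under 2-fold, and IRF1 at −0.31.

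As a group the listed enzymes had a median change of −0.66 and summed to 1156 FPKM with DMSO and 703 with Aza/TSA, 1.64-fold lower. The other 8 cytosolic members had a median of 0.16 and summed to 352 and 410 FPKM. The groups did not overlap, but the gap was narrow. The highest change among the listed was −0.26 (CARS) and the lowest among the others −0.19 (FARSB). The list was chosen with earlier results of these data known, and the split was added after the values were seen. The split is therefore no independent support for the list. With the GC trend subtracted the medians were −0.80 and 0.23, and the nearest members were LARS at −0.34 and QARS at −0.14. The median GC content of the transcripts was 50.04% in the listed and 46.7% in the other cytosolic enzymes. Spearman's correlation of GC content with the change was 0.53 across the listed enzymes and −0.66 with the trend subtracted. Across the other 8 it was 0.86 and 0.31. The mitochondrial members overlapped both groups.

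**Figure D3:**
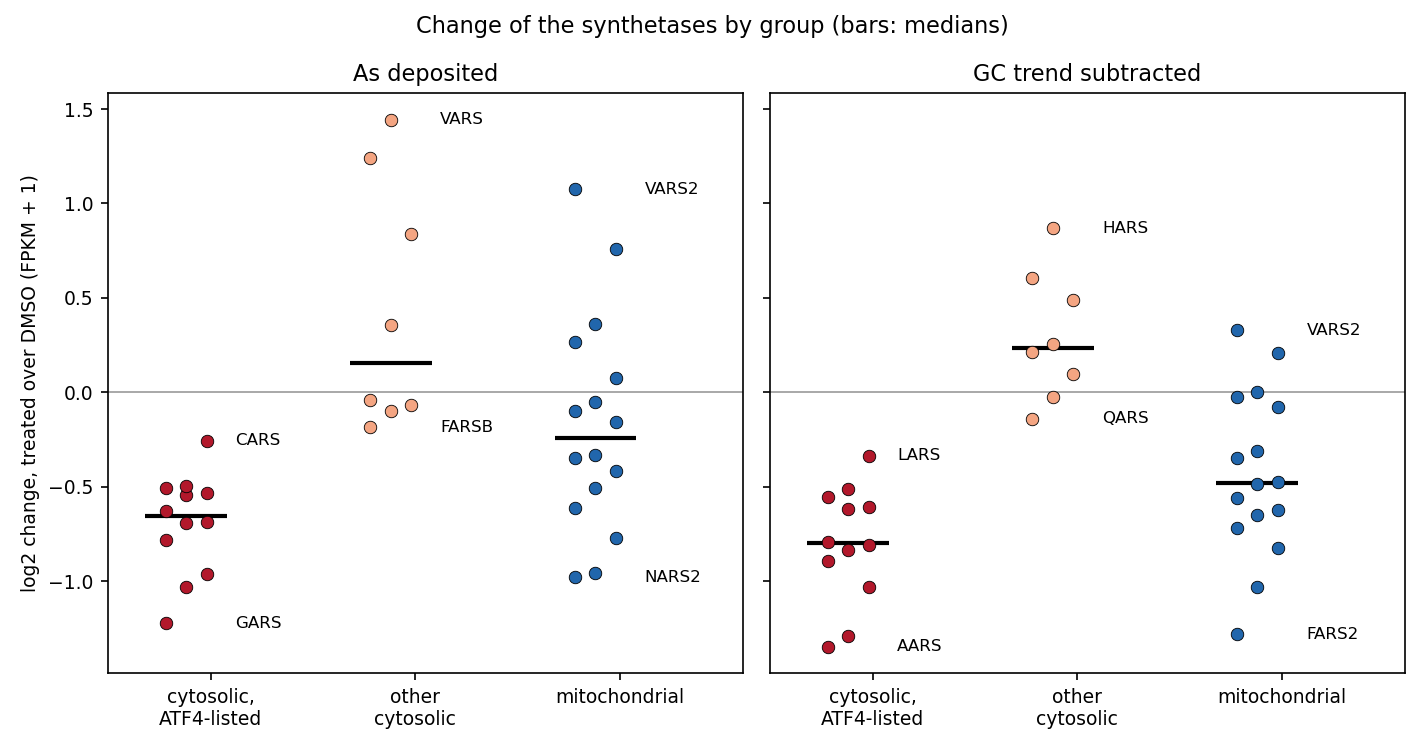
Log2 change (FPKM + 1) of each synthetase, 1 point per gene, for 12 ATF4-listed cytosolic, 8 other cytosolic and 16 mitochondrial members, as deposited (left) and with the GC trend subtracted (right); bars are medians. The listed enzymes lie below every other cytosolic enzyme in both panels, from −1.22 to −0.26 on the left.

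Among the 8 cytosolic enzymes outside the list, 4 differed by at most 1.14-fold between the libraries. KARS, the lysyl enzyme, had 120.1 FPKM with DMSO and 115 with Aza/TSA. RARS for arginine had 55.0 and 53.4, and FARSB 41.5 and 36.4. QARS, the glutaminyl enzyme, was 1.29-fold higher, at 28.4 and 36.5 FPKM. Its change turned from 0.36 to −0.14 when the GC trend was subtracted.

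The valyl enzyme VARS, which binds the elongation factor EEF1 complex, had 14.2 FPKM with DMSO and 40.5 with Aza/TSA, 2.84-fold higher and the widest change of all members. Its transcript is also the richest in GC, at 62.6%, and its change of 1.44 became 0.61 with the GC trend subtracted. FARSA and FARSB encode the alpha and beta subunits of phenylalanyl-tRNA synthetase, which assemble in equal number, and their mRNAs differed in direction. FARSA had 11.5 and 28.6 FPKM, 2.48-fold higher. The ratio of FARSB to FARSA was 3.60 with DMSO and 1.27 with Aza/TSA. Their transcripts differ in GC content, at 60.3% for FARSA and 41.6% for FARSB, and with the trend subtracted the changes were 0.49 and 0.10.

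HARS, the histidyl enzyme, was higher to the same extent with and without the GC trend. It had 27.6 FPKM with DMSO and 50.2 with Aza/TSA, 1.82-fold higher. Its transcript has 46.8% GC, and its change was 0.84 as deposited and 0.87 with the trend subtracted. Its mitochondrial counterpart HARS2 starts in the opposite direction close by and had 15.6 and 12.2 FPKM, 1.28-fold lower. The RefSeq starts of HARS1 and HARS2 lie 84 bases apart, so both genes share the stretch between them, which is shown because the neighbours differed in direction.
HARS1-HARS2 (chr5:140691371-140691454, GRCh38.p14, plus strand, the strand of HARS2): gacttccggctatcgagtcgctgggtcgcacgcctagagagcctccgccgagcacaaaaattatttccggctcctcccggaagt
No 50-base word was common to the coding transcripts of HARS and HARS2 in GENCODE 29, nor to those of any other pair compared here.

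Within the multisynthetase complex the changes differed in size and direction. Of its 8 synthetases, EPRS, IARS, LARS and MARS are ATF4-listed and had changes of −1.03, −0.78, −0.63 and −0.50. The other 4, among them KARS, RARS and QARS, lay between −0.10 and 0.36. The scaffold genes had changes of −0.13 to 0.72: AIMP1 had 24.1 FPKM with DMSO and 21.95 with Aza/TSA, EEF1E1 41.8 and 56.2, and AIMP2 15.9 and 26.8. All 3 were above 0 with the GC trend subtracted, at 0.44 for AIMP1, 0.96 for EEF1E1 and 0.46 for AIMP2. By structural class, cytosolic and mitochondrial together, the median change was −0.35 in the 19 class I and −0.33 in the 17 class II members. EPRS was counted in class I only, although PARS2, the mitochondrial enzyme for its prolyl activity, is in class II.

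Among the 16 mitochondrial enzymes the lowest changes were those of NARS2, WARS2, FARS2 and PARS2. NARS2, the asparaginyl enzyme, had 13.8 FPKM with DMSO and 6.497 with Aza/TSA, a plain ratio of 2.12-fold lower. WARS2 for tryptophan had 11.3 and 5.35 FPKM, 2.12-fold lower in plain ratio. Neither reached 2-fold on the scale with 1 FPKM added, at −0.98 and −0.96. FARS2 for phenylalanine had 7.17 and 3.78 FPKM, and PARS2 for proline 3.33 and 1.83. FARS2 and PARS2 were further below 0 with the GC trend subtracted, at −1.28 and −1.03.

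YARS2 had 26.6 FPKM with DMSO and 18.4 with Aza/TSA, LARS2 7.93 and 5.69, and RARS2 16.4 and 12.7. All 3 were 1.29- to 1.44-fold lower. IARS2, the most abundant mitochondrial member, had 62.9 and 56.3 FPKM, TARS2 11.8 and 10.9, and EARS2, the glutamyl enzyme, 12.97 and 12.5. CARS2 had 18.6 and 19.7 FPKM. These 4 differed by less than 1.12-fold between the libraries.

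Beside CARS2, 4 mitochondrial members were higher in the treated library. VARS2 had 2.68 FPKM with DMSO and 6.75 with Aza/TSA, 2.52-fold higher, and SARS2 had 5.52 and 10.0, 1.82-fold higher. AARS2 had 3.34 and 4.56 FPKM, and MARS2 2.50 and 3.20. With the GC trend subtracted, VARS2 and MARS2 were above 0, at 0.33 and 0.21, and SARS2 and AARS2 below it, at −0.03 and −0.35.

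For 13 amino acids the cytosolic and mitochondrial enzymes are a pair of genes with matching symbols, which allows a comparison within each pair. Both members were lower in 7 pairs (I, L, N, R, T, W and Y by the amino acid's letter), both were higher in 1 (V), and they differed in direction in 5 (A, C, H, M and S). With the GC trend subtracted the numbers were 8, 1 and 4, but they were not made up of the same pairs. A, C and S were then lower in both members, and I and R differed in direction. Some of these lay close to 0, with IARS2 at 0.004, SARS2 at −0.03 and RARS2 at −0.08. Pearson's correlation of the paired changes was 0.38 and Spearman's 0.16 over the 13 pairs, which share both libraries. The cytosolic member had the higher level in 13 of 13 pairs with DMSO and in 12 of 13 with Aza/TSA.

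In the 3 pairs with the widest ratio in the DMSO library the levels came closer together. The ratio of AARS to AARS2 was 30.2 with DMSO and 11.2 with Aza/TSA, that of SARS to SARS2 36.2 and 13.6, and that of MARS to MARS2 24.3 and 13.3. The ratio of IARS to IARS2 went from 1.33 to 0.861, the one pair in which the mitochondrial mRNA became the more abundant. TARS to TARS2 also fell, from 18.1 to 12.1. Other ratios rose, such as HARS to HARS2 from 1.77 to 4.12 and WARS to WARS2 from 10.2 to 14.9. These ratios are of FPKM as deposited, without subtraction of the GC trend. Over all 13 pairs the ratio was smaller in the treated library in 7, with medians of 5.32 and 5.15.

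**Figure D4:**
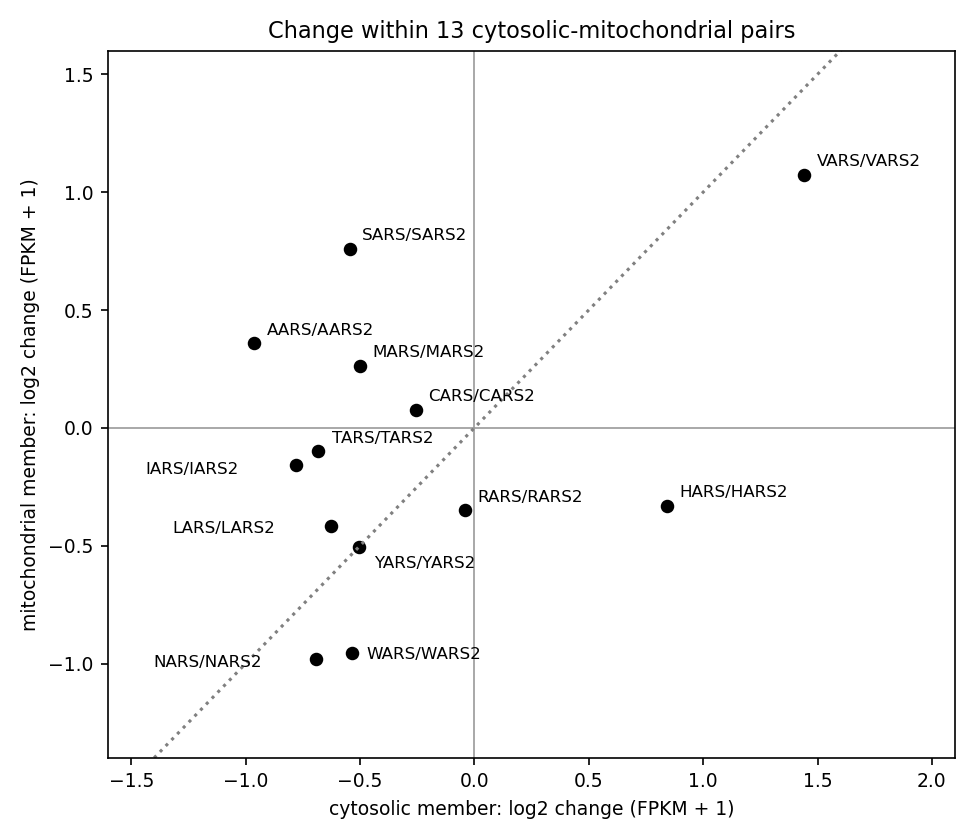
Log2 change (FPKM + 1), as deposited, of the mitochondrial against the cytosolic member for 13 pairs of synthetase genes, 1 point per pair. The dotted line marks equal change. The 7 pairs at the lower left were lower in both compartments, VARS/VARS2 lies alone at the upper right, and 5 pairs differ in direction.

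Other genes of tRNA charging and of amino acid supply were set beside the members. Of 30 amino-acid response genes attributed to ATF4, 13 were at least 2-fold lower and 2 higher, against 5.21% and 16.1% of all measured genes. Their median change was −0.49, and −0.96 with the GC trend subtracted, when 14 were lower and 2 higher, against 4.26% and 7.41%. SLC7A11, the cystine transporter, was 10.8-fold lower, PSAT1, of serine synthesis, 4.82-fold and asparagine synthetase ASNS 3.56-fold, all wider than any synthetase, while the transcription factor ATF5 was 3.66-fold higher. ATF4 itself had 549 FPKM with DMSO and 412 with Aza/TSA, a change of −0.41, or −0.99 with the GC trend subtracted. EIF2AK4 had 10.6 and 10.5 FPKM. ATF4 is regulated largely by translation, which these libraries do not measure. Of 12 synthetase-related proteins 1 was at least 2-fold lower and none higher, with a median of −0.41, or −0.19 with the GC trend subtracted. PET112, now called GATB, a subunit of the mitochondrial glutamyl-tRNA amidotransferase, had 7.90 and 3.02 FPKM.

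Lists for making and using tRNA were counted in the same way. Among all measured genes 5.21% were at least 2-fold lower, 16.1% at least 2-fold higher and 44.0% below 0. With the GC trend subtracted these shares were 4.26%, 7.41% and 48.7%. None of 11 mitochondrial translation factors passed 2-fold in either direction (median −0.46), with 10 of them below 0. Their median was −0.26 with the GC trend subtracted, and ICT1, a release factor of the mitochondrial ribosome, was 2-fold lower at −1.16. Of 20 cytosolic translation factors 2 were 2-fold higher and none lower (median −0.03, or 0.04 with the GC trend subtracted). The higher ones were subunits of the exchange factor eIF2B, EIF2B2 at 43.1 and 91.2 FPKM and EIF2B4 at 5.15 and 12.5. EIF2B4 was under 2-fold with the GC trend subtracted, at 0.55, and the translation repressor EIF4EBP1 was 2-fold lower at −1.56. A list of 20 genes for RNA polymerase III, which transcribes tRNA genes, held its subunits, its factors and a repressor of it. Of these 1 was 2-fold lower (POLR3G, 7.60 and 2.94 FPKM) and none higher. The median was 0.35, or 0.06 with the GC trend subtracted. Of 30 measured genes of tRNA maturation and export 2 were lower and 2 higher (median 0.15, or 0.04 with the GC trend subtracted). XPOT, the tRNA export receptor, had 64.3 and 25.8 FPKM and the splicing endonuclease subunit TSEN15 32.4 and 12.1, while another subunit, TSEN34, had 10.5 and 25.8, and the methyltransferase subunit TRMT61A 1.84 and 6.59. None of these 4, nor POLR3G, passed 2-fold with the GC trend subtracted.

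**Figure D5:**
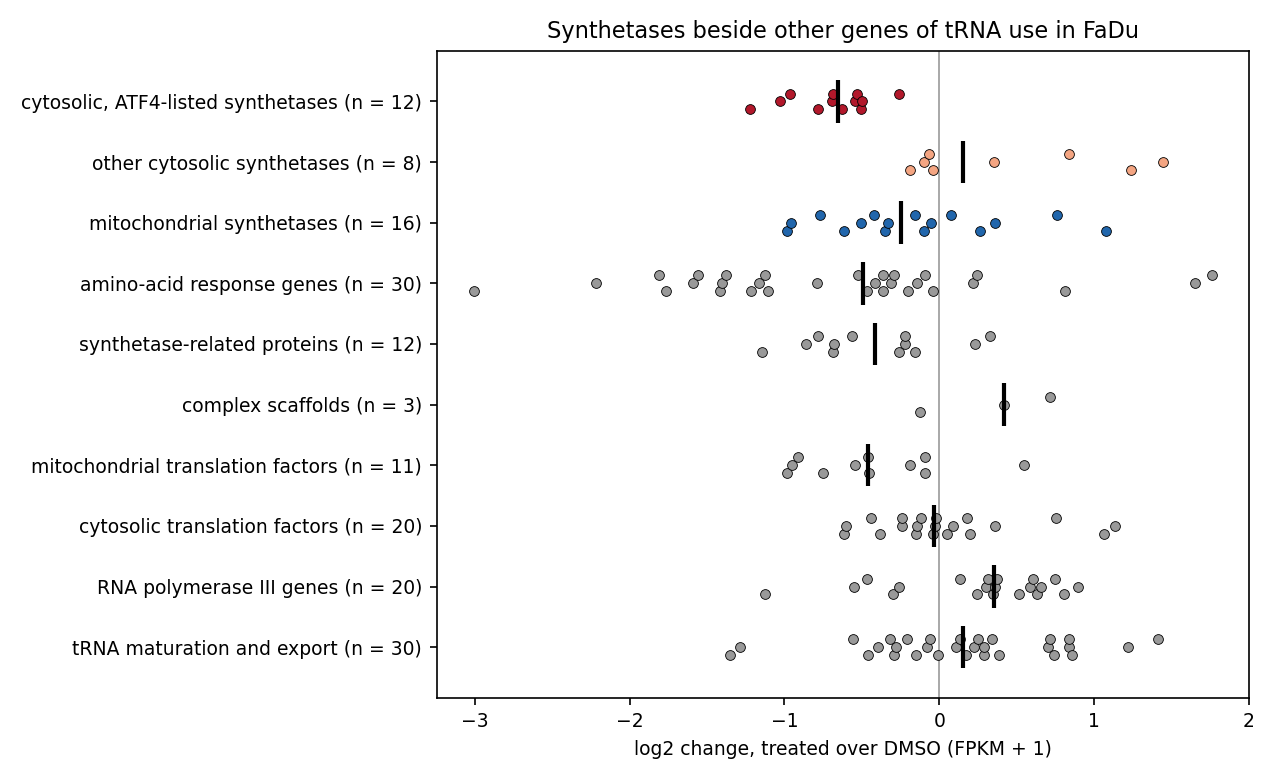
Log2 change (FPKM + 1) of measured genes in the 3 groups of synthetases and in 7 further lists, 1 point per gene, with the median as a bar and the number of genes in brackets. The ATF4-listed synthetases all lie below 0, between −1.22 and −0.26, and the RNA polymerase III genes have a median of 0.35.

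Markers of the labelled cell type were present in both libraries. All 7 markers of squamous epithelium were at 15.2 FPKM or more in the DMSO library and at 23.2 or more in the treated library, with KRT5 at 687 and 226, TP63 at 73.7 and 23.2, and KRT14 at 49.8 and 147. Of 13 markers of leukocytes, endothelium and fibroblasts 3 reached 1 FPKM in either library: CD68 at 12.98 and 51.3 FPKM, CDH5 at 0.743 and 2.85, and COL1A1 at 0.749 and 3.08. CD3E, PECAM1, KDR, PDGFRB and DCN were listed at 0 in the DMSO library. The part of other cell types in the synthetase values was not tested.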

How the data were processed

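RNA of 4 cultures was sequenced, 1 library each, and the labels give the groups. The authors deposited 1 table of FPKM with a row per gene symbol, per the file headers. The submitters' processing notes name TopHat 1.3.2, Cufflinks 2.0.2 and the build hg19. Annotation, filters and between-library scaling were not given in the sources used here. FPKM hold no read numbers, so absolute depth is unknown and no counting error can be given. The UMSCC47 columns were left out, since their Spearman correlation across rows was 0.12 with each other and 0.11 to 0.12 with the FaDu columns, against 0.91 between the FaDu columns.

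In FaDu, 45 repeated rows were summed (each synthetase had 1 row), log2((treated FPKM + 1)/(DMSO FPKM + 1)) was computed with pandas 2.3.3, and genes were called at a 2-fold difference on that scale, with no test. GC content and length came from GENCODE 29, on another build than hg19, and 92.3% of measured genes had a value. Both were those of the longest coding transcript, or of the longest transcript where a gene had no coding one. The trend of the change on either was fitted by lowess (statsmodels 0.14.6, fraction 0.3) over 7123 genes reaching 5 FPKM in both and then subtracted. Subtraction of the GC trend was tested on simulated data with a linear trend and effects placed at random to GC content. That setting cannot show how well the trend suits the members here. Promoters came from RefSeq on GRCh38.p14, matched by symbol, and no coordinates were joined to the hg19 data. The members and gene lists were chosen with earlier results of these data known. All members are named but 1, which is not reported here by name and is kept in the counts, and from each other list the genes at least 2-fold different, up to the 4 with the widest change, as well as AIMP1, AIMP2, EEF1E1, ATF4, EIF2AK4, KRT5 and TP63. The markers listed at 0 that are named, IRF1, GBP1, ICT1 and EIF4EBP1 were chosen after their values were seen. The alternatives were a pseudocount of 0.1 or 5, a filter at 5 FPKM or none, TPM scaling, centring on the median change, the GC and length trends, and the highest of repeated rows. Calling at 1.5-fold, and the results on ATF4-listed enzymes, were added after the data were seen.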

Additional observations from a re-analysis of the deposited data

How the results depend on the processing

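Under 9 other settings of the values, the cytosolic median stayed between −0.59 and −0.47, the mitochondrial between −0.48 and −0.20 and their distance between 0.05 and 0.27. The ATF4-listed median stayed between −0.80 and −0.59 and that of the other cytosolic enzymes between 0.00 and 0.23. The gap between the groups was 0.05 to 0.20, so that they overlapped under none of these. The filters, centring and the highest of repeated rows could not alter the gap, which stayed at 0.07. Counts at 2-fold moved, since several members lie close to the threshold. The mitochondrial count lower was 2 in place of 0 with a pseudocount of 0.1, with TPM scaling, with centring on the median change, with the GC trend subtracted and with the length trend subtracted. With a pseudocount of 5 the cytosolic count lower was 1 and the mitochondrial count higher 0. With the GC trend subtracted the cytosolic count higher was 0 in place of 2 and the mitochondrial 0 in place of 1. Called at 1.5-fold, 7 cytosolic and 4 mitochondrial members were lower and 2 mitochondrial higher. Of single members, 5 moved by over 1.5 times, all with the GC trend subtracted, and no called member changed sign. Among members not called at 2-fold the sign changed in 9 cases, 8 of them with the GC trend subtracted. No paired analysis was possible because each group has 1 library, which also left no replicate to leave out.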
